A study of Homo sapiens with 8 samples.

Results

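The sites described here are the listed ATAC-seq sites around the human Iroquois genes. These are the sites whose centre lies, on hg19, in chromosome 5 from 1.7 to 4.2 Mb, the interval of IRX4, IRX2 and IRX1, or in chromosome 16 from 53.8 to 55.6 Mb, the interval of IRX3, IRX5 and IRX6. They number 31 of the 14191 sites in the authors' 2 lists, or 0.218%. ATAC-seq marks open DNA by the insertion of sequencing adapters with the Tn5 transposase, and was applied to 8 samples of H9, an established human embryonic stem cell line, in 4 groups of 2. The groups were p63-/- cells at day 7 of differentiation in 1 uM retinoic acid and 5 ng/ml BMP4, wild-type cells at day 7 of the same treatment, cells at day 0 of genotype TetO:Tp63+/- given 2 ug/ml doxycycline for 2 days to induce p63, and wild-type cells at day 0. Retinoic acid and BMP4 are the morphogens that turn these pluripotent cells into surface ectoderm, the epithelium that precedes the epidermis, and p63 is a transcription factor of the p53 family that stratified epithelia require. The labels do not say whether the knockout and the inducible line were each a single clone.

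By its name, one list holds sites that the morphogens open and p63 closes. It is tied by the labels to the p63-/- and wild-type cultures of day 7, and its sites are called p63-closed below. By its name, the other holds sites that the morphogens open. It is tied to wild-type cultures of day 7 and of day 0, and its sites are called opened. The lists share no site name. The labels do not state from which groups of samples the p63-closed list was derived, nor whether the lists were made to exclude each other, so a p63-closed share below is the share of listed sites that are in that list and not a share of all sites that p63 closes. Each gives only a position and a numbered name for a site, so accessibility per sample, replicate error and read depth are unknown, the direction of change is the authors' own, and no test between cultures was possible. The labelled cell types could not be checked against markers, as the lists hold no value per gene. No list for the induced line was analysed here. All positions of sites are on hg19.

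Iroquois proteins are transcription factors of the TALE homeobox class, named after the Drosophila complex whose members pattern the body wall and sensory bristles. Vertebrates carry them in paired clusters that arose by duplication, so IRX1 has its counterpart in IRX3, IRX2 in IRX5 and IRX4 in IRX6. They are known for setting up regions of the early ectoderm, neural tube, heart and limbs, and their clusters are surrounded by long stretches with few other coding genes and many conserved enhancers. IRX4 marks the ventricles of the heart. IRX3 and IRX5 act together in heart and limb development of the mouse, and variants in IRX5 cause a human craniofacial syndrome. IRX6 is known in the mouse from interneurons of the retina.

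In the RefSeq gene table (GRCh38.p14, used for gene order only) the chromosome 5 cluster ran IRX4, IRX2, IRX1. Between its outer members lay 19 other genes, of which 16 were long non-coding RNA genes and 1, LOC124901165, was annotated as protein-coding. The nearest protein-coding genes outside were LOC124901163 before IRX4 and ADAMTS16, a secreted metalloprotease gene, after IRX1. The chromosome 16 cluster ran IRX3, IRX5, IRX6, with 13 other genes between them, 11 of them long non-coding RNA genes (among them CRNDE) and 0 protein-coding. Its neighbours were FTO, an RNA demethylase gene whose introns are known to hold enhancers acting on IRX3 and IRX5, and MMP2, a matrix metalloprotease gene. No hg19 gene annotation was used, so sites were assigned to a cluster interval and not to a single gene, and whether a site lies in a promoter, exon or intron was not determined.

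RefSeq start-site sequences were matched for 3 of the 6 genes, IRX4 with 3 start sites and IRX2 and IRX1 with 1 each; IRX3, IRX5 and IRX6 were not matched. Sequences of the sites themselves were not read, for want of an hg19 genome; these are shown because they are the members' own start sites, and for their CpG content. Each runs 5′ to 3′ on the gene's strand from 250 bases before to 50 bases after the start, in GRCh38.p14, with every CpG in capitals. The IRX4 sequence is chr5:1886896-1887195 on the minus strand, the first of its 3 in the table; that of IRX2 is chr5:2751628-2751927 on the minus strand; that of IRX1 is chr5:3595582-3595881 on the plus strand. These positions are of another build than those of the sites and were not compared with them.
IRX4: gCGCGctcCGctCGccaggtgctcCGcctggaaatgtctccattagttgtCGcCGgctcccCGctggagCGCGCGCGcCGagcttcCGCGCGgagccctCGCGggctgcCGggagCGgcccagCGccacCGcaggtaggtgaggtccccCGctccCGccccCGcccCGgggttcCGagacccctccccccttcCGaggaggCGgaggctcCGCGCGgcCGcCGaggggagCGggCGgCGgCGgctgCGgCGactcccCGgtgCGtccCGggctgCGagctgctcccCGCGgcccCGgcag
IRX2: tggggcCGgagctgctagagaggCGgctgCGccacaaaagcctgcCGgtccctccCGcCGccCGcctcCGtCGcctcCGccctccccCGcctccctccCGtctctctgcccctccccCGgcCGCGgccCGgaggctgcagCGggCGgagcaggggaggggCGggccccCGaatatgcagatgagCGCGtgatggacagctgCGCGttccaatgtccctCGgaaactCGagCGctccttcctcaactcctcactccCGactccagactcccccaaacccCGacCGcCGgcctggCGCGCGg
IRX1: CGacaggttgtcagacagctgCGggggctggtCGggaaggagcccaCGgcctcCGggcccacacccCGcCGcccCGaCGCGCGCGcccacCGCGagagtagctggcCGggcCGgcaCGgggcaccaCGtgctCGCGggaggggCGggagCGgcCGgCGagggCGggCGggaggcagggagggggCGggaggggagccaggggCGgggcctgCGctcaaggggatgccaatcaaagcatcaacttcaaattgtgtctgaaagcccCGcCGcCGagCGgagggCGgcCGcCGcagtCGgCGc

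All 3 printed sequences were rich in C and G. IRX4 held 47 CpG and was 79.7% C or G, IRX1 held 38 CpG at 76.0% and IRX2 held 34 CpG at 73.3%, against medians of 14 CpG and 58.7% over 35116 RefSeq start-site sequences of the same 300 base length. The other IRX4 start sites held 36 CpG at 63% C or G and 44 CpG at 75%. The 63% is nearer the median share, but 36 CpG is well above the median of 14. The window with 44 overlaps the printed one. All 5 sequences were searched on both strands for AGGTCA, the hexamer bound by retinoic acid receptors, and for CATG, a core of p53-family sites that is the same on both strands. Neither was found in any of the 5. AGGTCA was present in 13.8% and CATG in 54.9% of all the sequences, and the p53-family decamer, also not found in the 5, in 6.63%. The 5 windows come from 3 genes, and the shares over all the sequences were not matched to them for C and G content. An absence here is therefore not shown to be a depletion. These counts describe the letters in these windows only.

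Of the 31 sites, 17 were p63-closed and 14 were opened. The p63-closed share was 54.8% (exact Clopper-Pearson 95% interval 36.0 to 72.7%), against 42.5% of all listed sites, a value inside that interval. The 17 were 0.282% of all p63-closed sites and the 14 were 0.172% of all opened sites. Density was taken per 1000 entries of the numbered catalogue from which the site names come, of which 0.330% were listed as p63-closed and 0.446% as opened over all chromosomes. An entry is a number in that naming, at a median of 1 per 1495 bp, and is not shown to be an accessible site. In the Iroquois intervals together there were 5.81 p63-closed sites per 1000 entries (exact Poisson 95% interval 3.38 to 9.30), against 3.30 over all chromosomes, a ratio of 1.76. For opened sites the density was 4.78 (2.62 to 8.03), against 4.46 over all chromosomes, a ratio of 1.07. Per Mb the ratios were 1.92 for p63-closed and 1.17 for opened sites. These intervals cover counting error only, and neighbouring sites are not independent.

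The p63-closed density was higher in the chromosome 16 interval than in the chromosome 5 interval, 7.89 against 4.22 per 1000 entries. Their exact Poisson intervals, 3.78 to 14.5 and 1.70 to 8.69, overlap widely, and the difference was not tested. The bounds of the chromosome 16 interval were not set by gene annotation. Sites in it may therefore lie in the neighbouring genes FTO or MMP2 and not between the members, which was not determined. This interval, of IRX3, IRX5 and IRX6, held 10 p63-closed and 6 opened sites in 1.8 Mb. Its p63-closed density was 7.89 per 1000 entries (3.78 to 14.5), against 2.24 (1.83 to 2.71) on the rest of chromosome 16 and 3.30 over all chromosomes. Its opened density, 4.74 (1.74 to 10.3), lay near the 3.79 of the rest of the chromosome. The p63-closed share was 62.5% (35.4 to 84.8%), against 37.2% (31.6 to 43.0%) on the rest of chromosome 16. Both this 37.2% and the 42.5% of all listed sites lie inside the wide interval of the 62.5%. With the interval narrowed by 200 kb at each end it held 8 p63-closed and 2 opened sites, so 4 of its 6 opened sites lie near its ends.

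The chromosome 5 interval, of IRX4, IRX2 and IRX1, held 7 p63-closed and 8 opened sites in 2.5 Mb. The p63-closed density was 4.22 per 1000 entries (1.70 to 8.69), against 3.96 (95% interval 3.60 to 4.34) on the rest of chromosome 5. The opened density was 4.82 (2.08 to 9.50), against 4.17 on the rest. Its p63-closed share of 46.7% (21.3 to 73.4%) lay beside 48.7% for the rest of the chromosome. Both densities of the rest of the chromosome lay inside the intervals of these counts. The p63-closed shares of both Iroquois intervals, 62.5% and 46.7%, had 95% intervals that overlap widely.

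Flanks were taken on both sides as long as the interval itself, except that the chromosome 5 interval starts 1.7 Mb from the chromosome's first base. The chromosome 5 flanks held 0 p63-closed and 10 opened sites, while the interval between them held 7 and 8. A count of 0 of 10 allows a p63-closed share of up to 30.8% (exact Clopper-Pearson). The p63-closed sites of this part of the short arm thus all lay inside the interval. The interval was chosen with earlier results of these data known, so its contrast with the flanks is a description and not a test. On chromosome 16 the flank before the interval, towards the centromere, held 1 p63-closed and 1 opened site, and the flank after it held 5 and 4. The interval itself held 16 listed sites, against 11 in both flanks together, which are 3.6 Mb long.

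**Figure D1:**
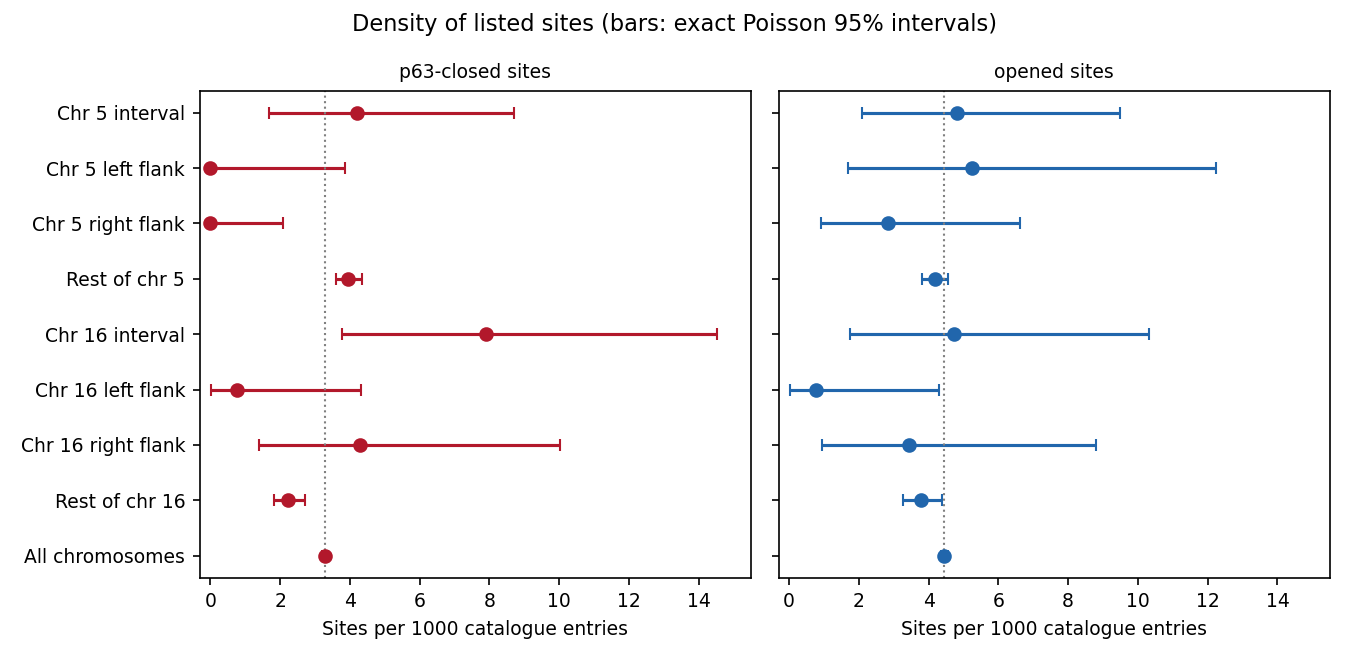
Density of p63-closed sites (left) and opened sites (right) per 1000 catalogue entries in each Iroquois interval, its flanks, the rest of its chromosome and all chromosomes; points are densities, bars exact Poisson 95% intervals for counting error, and the dotted line is the value over all chromosomes. The chromosome 16 interval is at 7.89 p63-closed sites per 1000 entries, and both chromosome 5 flanks are at 0.

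Windows of the same lengths laid end to end along every chromosome show where these counts stand. Of 1669 windows of 1.8 Mb, 6.83% held at least the 10 p63-closed sites of the chromosome 16 interval, with a median of 3 per window. At least its 6 opened sites were held by 36.1% of the windows, with a median of 4, and at least its 16 listed sites by 8.75%, with a median of 8. Of 1200 windows of 2.5 Mb, 31.3% held at least the 7 p63-closed sites of the chromosome 5 interval and 38.3% at least its 8 opened sites, with medians of 4 and 6. The fullest window held 33 listed sites at 1.8 Mb and 34 at 2.5 Mb. These ranks are a description, with no test.

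**Figure D2:**
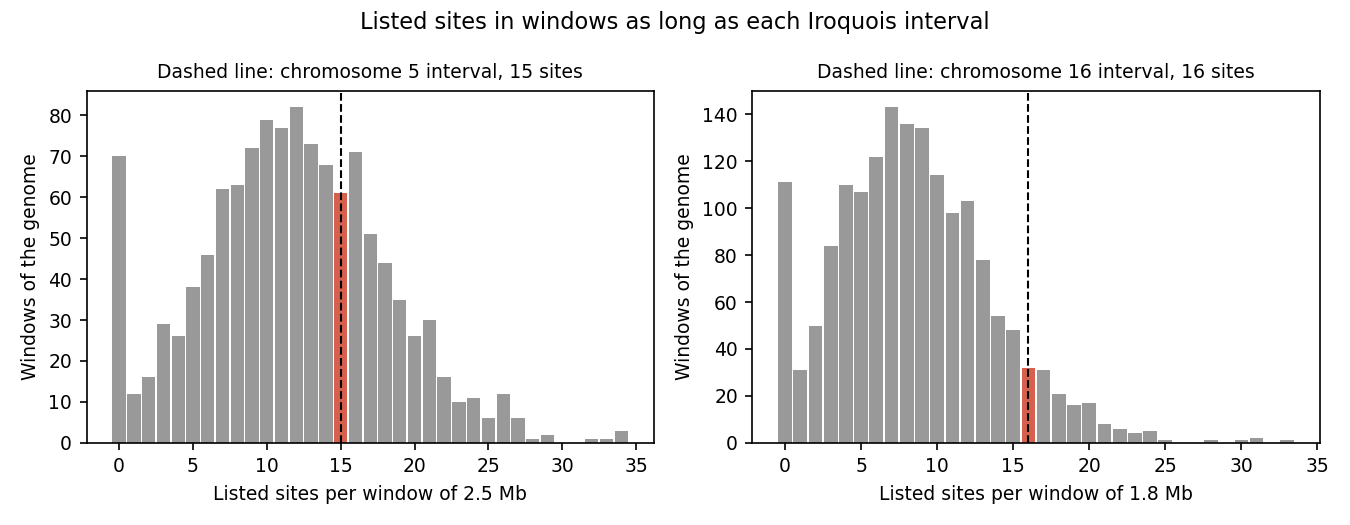
Number of genome windows (y axis) by the listed sites they hold (x axis, both lists summed), for windows of 2.5 Mb (left) and 1.8 Mb (right); the coloured bar and dashed line mark the count of the Iroquois interval of that length. The chromosome 5 interval, with 15 sites, is above the window median of 12, and 32.25% of windows hold at least as many. The chromosome 16 interval, with 16, is in the upper part of the spread, where 8.75% of windows hold at least as many.

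Within the chromosome 16 interval the p63-closed sites were gathered at one side. In order, the interval opened with an opened site at chr16:53845751-53846618, 868 bp wide and the narrowest of its opened sites. Next came the widest of all 31 members, the opened site chr16:53956628-53959724, with 3097 bp, a width that 96.1% of opened sites do not exceed. The densest 200 kb of the interval began there and held 6 sites in 139 kb, 4 p63-closed and 2 opened. After the 3097 bp site followed the p63-closed sites chr16:53969593-53971721 (2129 bp) and chr16:53993940-53996576 (2637 bp, the widest p63-closed member), the opened site chr16:54024682-54026324 (1643 bp), and the p63-closed sites chr16:54060250-54062430 (2181 bp) and chr16:54094432-54095533 (1102 bp). This group mixes the lists, with each opened site followed by 2 p63-closed sites. The first p63-closed site starts 9868 bases after the end of the 3097 bp opened site. The opened site of 1643 bp has p63-closed sites on both sides, 28.1 and 33.9 kb away.

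The next sites were wider apart. A p63-closed site of 1226 bp lay at chr16:54211839-54213064, and an opened site of 1578 bp at chr16:54395386-54396963. Then came the longest run of either list among the members, 5 p63-closed sites in a row with no opened site between them. The run began at chr16:54422761-54424797 (2037 bp) and went on with chr16:54457431-54458843 (1413 bp). The next pair, chr16:54516418-54517815 (1398 bp) and chr16:54518174-54519167 (994 bp, the narrowest p63-closed site of this interval), are separated by 358 bases and carry consecutive catalogue numbers, which makes them the closest pair of all the members. Over all chromosomes 0.459% of neighbouring pairs had centres as close as theirs, 1.55 kb. This pair was picked as the closest of 29 member distances, so a low share follows in part from that choice.

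In all, 9 of the 10 p63-closed sites lay in 550 kb, chr16:53969593-54519167, together with 2 opened sites. This stretch was chosen after its values were seen. It was followed by the longest empty stretch of either interval, 770 kb starting after chr16:54519167 with 533 catalogue entries and 0 listed sites. A gap of this length or more separated 4.50% of neighbouring listed sites over all chromosomes. This gap too was picked as an extreme of the members. The run ended beyond it with the last p63-closed site, chr16:55289410-55290852 (1443 bp). The last members were a close pair of opened sites, chr16:55533531-55535020 (1490 bp) and chr16:55536490-55537570 (1081 bp). They are 1469 bases apart and form the closest pair among the opened members.

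The chromosome 5 interval was laid out more evenly. Its first member, the opened site chr5:1936345-1938925 (2581 bp), lay 236 kb into the interval. It was followed by the narrowest of all 31 members, the opened site chr5:2030153-2030776, with 624 bp, a width that only 0.957% of opened sites do not exceed. A p63-closed site of 2034 bp lay at chr5:2118517-2120550, and a pair of opened sites 4442 bases apart at chr5:2272219-2273729 (1511 bp) and chr5:2278172-2279777 (1606 bp).

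After a gap of 418 kb came the longest p63-closed run of this interval, 3 sites in 288 kb. These were chr5:2697300-2698901 (1602 bp), chr5:2828938-2830193 (1256 bp) and chr5:2983142-2984978 (1837 bp), each more than 130 kb from the next. A single opened site, chr5:3199623-3200888 (1266 bp), and a single p63-closed site, chr5:3426349-3427396 (1048 bp), stood apart from the rest. The longest empty stretch here was 497 kb, which follows this p63-closed site, with 342 catalogue entries.

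The densest 200 kb of the chromosome 5 interval closed it, with 5 sites in 190 kb. It began with the longest opened run of either interval, 3 sites at chr5:3924408-3927111 (2704 bp, the widest member on chromosome 5), chr5:3995248-3997251 (2004 bp) and chr5:4027094-4029416 (2323 bp). Then came 2 p63-closed sites, chr5:4065338-4067529 (2192 bp) and chr5:4113236-4114143 (908 bp, the narrowest p63-closed member). The opened site of 2323 bp and the p63-closed site of 2192 bp are 35.9 kb apart, the closest pair from different lists on chromosome 5. By bins of 500 kb from the start, the interval held 1, 1, 2, 1 and 2 p63-closed sites and 2, 2, 0, 1 and 3 opened sites. The chromosome 16 interval held 5, 4, 1 and 0 p63-closed and 3, 1, 0 and 2 opened sites, its last bin being 300 kb.

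**Figure D3:**
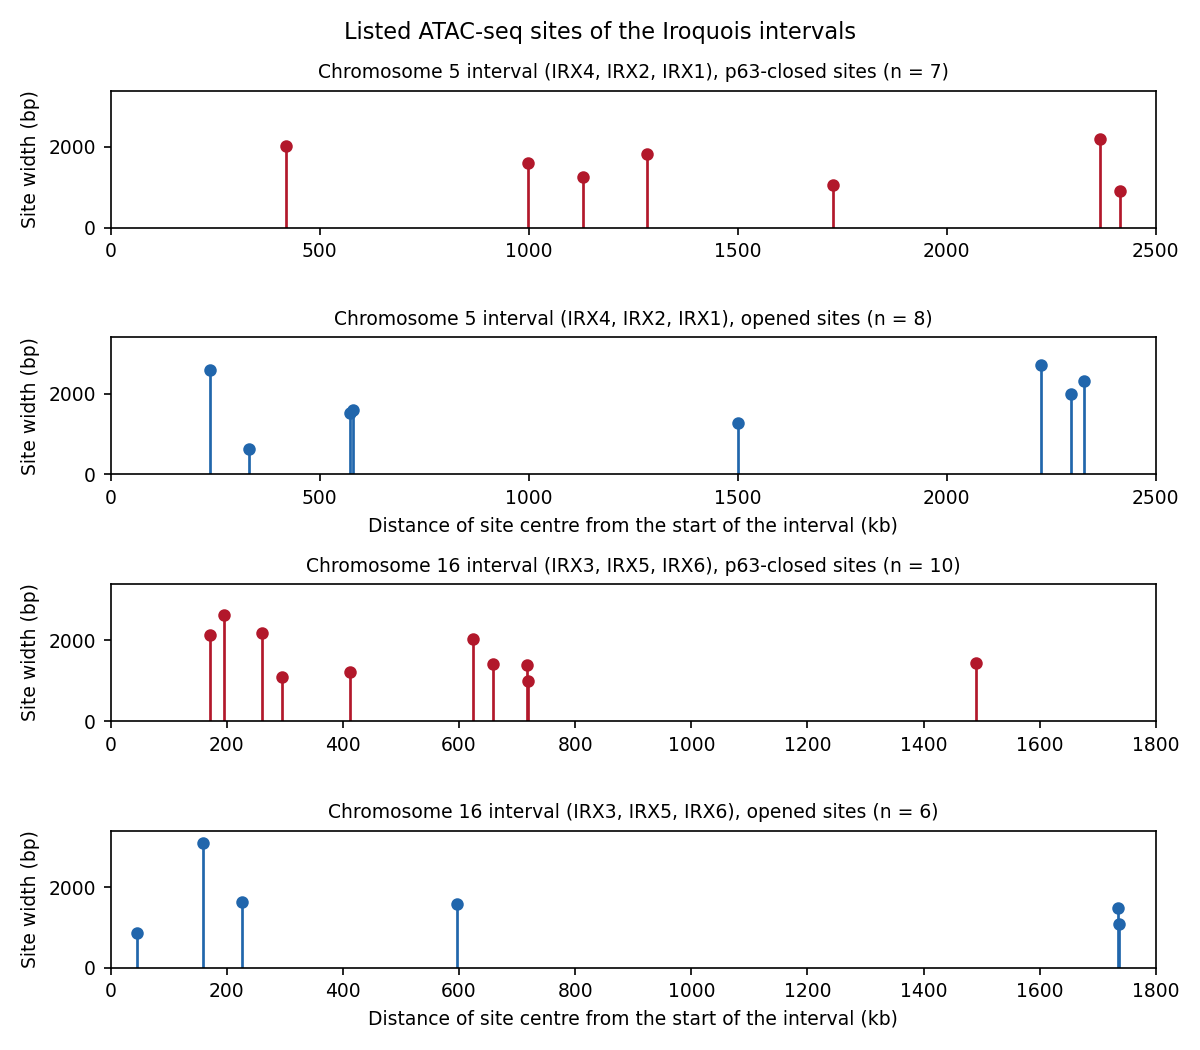
Position (x axis, kb from the start of the interval) and width (y axis, bp) of each of the 31 sites, with p63-closed sites in red above opened sites in blue for each interval. On chromosome 16, 9 of the 10 p63-closed sites lie in the left part of the interval and a 770 kb stretch without sites follows; on chromosome 5 both lists run along the interval.

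The median distance between the centres of neighbouring listed sites was 34.4 kb on chromosome 16 and 112 kb on chromosome 5, against 96.4 kb over all chromosomes. Another listed site within 50 kb was found for 13 of 16 members on chromosome 16 (81.3%, exact interval 54.4 to 96.0%) and for 6 of 15 on chromosome 5 (40.0%, 16.3 to 67.7%), against 54.6% of all listed sites. This comparison depends on the distance. Within 20 kb the shares were 37.5% on chromosome 16 and 13.3% on chromosome 5, against 32.3% of all listed sites, and within 100 kb they were 81.3% and 66.7%, against 72.9%. On chromosome 16 the share exceeded that of all sites by most at 50 kb, and the value over all sites lay inside the exact interval at each of these distances. Among the p63-closed sites, 8 of 10 on chromosome 16 and 2 of 7 on chromosome 5 had another p63-closed site within 50 kb, against 41.8% of the whole list. The opened sites were ordered the other way, with 2 of 6 on chromosome 16 and 4 of 8 on chromosome 5 having another opened site within 50 kb, against 40.3% of the whole list. Their median distance to the nearest opened site was 67.3 kb on chromosome 16 and 51.2 kb on chromosome 5, against 74.7 kb for the list. An opened site lay within 50 kb of a p63-closed one for 4 of 10 on chromosome 16 and 1 of 7 on chromosome 5, against 28.9%. The median distance from a p63-closed member to the nearest opened site was 65.7 kb on chromosome 16 and 216 kb on chromosome 5, against 120 kb for the list. The shorter median distance in the interval of IRX3, IRX5 and IRX6 rested on 15 distances, against 14 in that of IRX4, IRX2 and IRX1. That distance was taken over both lists together. By median distance to the nearest site of the same list, p63-closed members were closer on chromosome 16 (33.6 kb) than on chromosome 5 (131 kb). Opened members were not (67.3 against 51.2 kb). These differences were not tested.

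**Figure D4:**
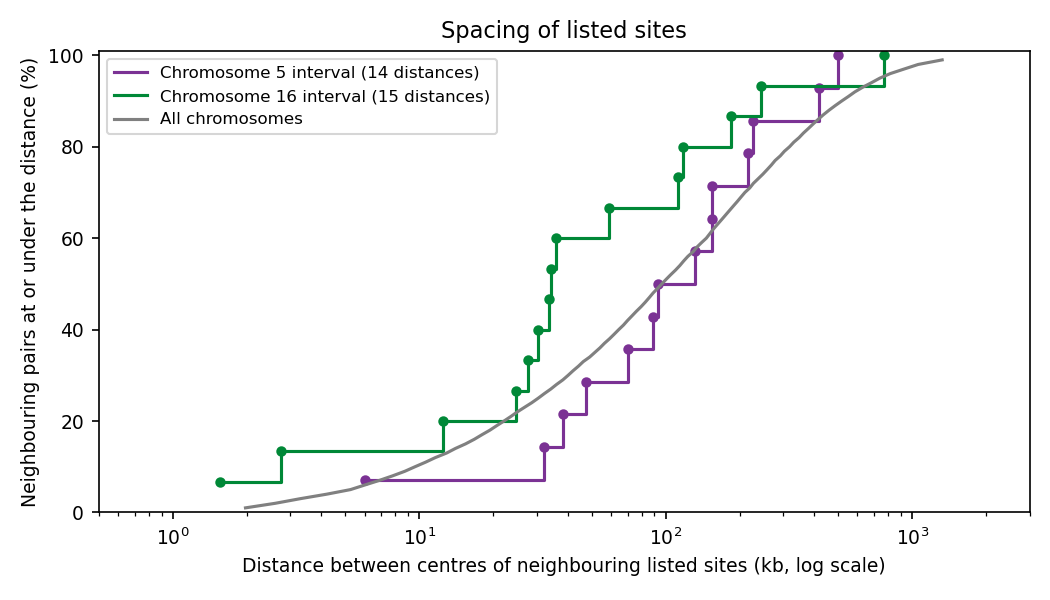
Cumulative share of neighbouring listed pairs (y axis, %) by the distance between their centres (x axis, kb, log scale) in the chromosome 16 interval, the chromosome 5 interval and over all chromosomes. The chromosome 16 curve rises early, with a median of 34.4 kb, and the chromosome 5 curve, with a median of 112 kb, stays close to that of all chromosomes.

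The order of the lists was mixed in both intervals. The 16 sites of chromosome 16 formed 7 runs of a single list and the 15 of chromosome 5 formed 8. A site and its next neighbour shared a list in 9 of 15 cases on chromosome 16 and in 7 of 14 on chromosome 5, together 55.2%, against 61.5% over all chromosomes. Of all p63-closed runs in the genome 9.34% were of 5 sites or more, the length reached in the interval of IRX3, IRX5 and IRX6. That run was picked as the longest among the members.

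Widths lay near those of the lists. The p63-closed members had a median width of 1443 bp (exact 95% interval of the median 1226 to 2037 bp), against 1531 bp for the list, and 8 of 17 were wider than the list's median. The opened members had a median of 1592 bp (1081 to 2581 bp), against 1597 bp, and 7 of 14 were wider. Together the members covered 1.20% of the intervals, with 1.46% on chromosome 16 and 1.02% on chromosome 5, against 0.817% over all chromosomes.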

How the data were processed

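Accessible chromatin was measured by ATAC-seq in 8 H9 samples, in 4 groups of 2. Per the submitters' processing notes FastQC, Bowtie2, SAMtools, MACS2 and DESeq2 were used, on hg19 or GRCh37; their versions, roles, thresholds and any pooling were not given in the sources used here. Deposited by the authors were 2 lists of sites with 4 columns each (chromosome, start, end, numbered name) and no other value. Starts were made 1-based. A site was a member where its centre lay in an interval. The members, intervals and lists were chosen with earlier results of these data known.

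Catalogue entries in a region were counted from the numbers in site names, by interpolation between listed sites (median 1 entry per 1495 bp; 6 jumps in the numbering were bridged by distance). Intervals at 95% are exact. Sites named are the first and last, widest and narrowest, closest pairs, longest runs, longest gaps and densest 200 kb of each interval; the others were added to account for every member. Counting and interpolation were tested on simulated data. The planned comparison of Iroquois proteins was not made, for want of their sequences. Promoters are RefSeq's (GRCh38.p14). Python 3.11.15, numpy 2.4.6, pandas 2.3.3, scipy 1.17.1 and matplotlib 3.10.9 were used.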

Additional observations from a re-analysis of the deposited data

How the results depend on the processing

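No paired analysis was possible because sites have no value per culture, and no replicate could be left out for the same reason. Of 53 alternative values, 50 stayed within 1.5 times the count or within the exact interval of the value, 3 moved and 0 reversed. Narrowing the intervals by 200 kb at each end moved the opened sites to 9 in both intervals and to 2 on chromosome 16, since it removes sites near the ends. A distance of 20 kb in place of 50 kb moved the share of members with another listed site that near to 25.8%, against 32.3% of all listed sites, where at 50 kb the shares were 61.3% and 54.6%. The members of both intervals together were thus above all listed sites at 50 kb and below them at 20 kb. At 100 kb the shares were 74.2% and 72.9%. The 50 include settings that could hardly come out otherwise, such as counting any overlap, and most intervals are wide, so the tally does not measure stability. Leaving out either interval and keeping only windows that hold a listed site were added after the data were seen, as was the p53-family decamer. No stricter threshold was available, since sites carry no score. Depth is unknown, so a site missing from a list is not shown to be unchanged.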
